A study of Homo sapiens with 6 samples.

Results

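The genes described here are 10 nuclear genes of the integrated stress response, the programme that the transcription factor ATF4 drives: GDF15, STC2, ATF4, DDIT3, ASNS, TRIB3, CHAC1, DDIT4, SESN2 and ATF3. They were taken by their Ensembl gene identifiers from tables of 57500 genes, and each of the 10 had a row in all 6 tables. The libraries came from mitochondria isolated with a kit from HepG2, a human liver carcinoma line labelled wild type and epithelial, grown in medium with fetal bovine serum. Cells had been kept for 48 h with the solvent DMSO alone (0 µM, the control), with 10 µM GenX or with 100 µM GenX, and each dose had 2 libraries. GenX is a fluorinated ether acid with a short carbon chain, used in making fluoropolymers. The stated purpose was to compare gene expression of mitochondrial RNA between doses. All 6 carry the same batch number. Whether the libraries of a dose were grown apart is not in the labels, and the p-values below therefore rest on a spread that may be purely technical.

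The integrated stress response starts when one of several kinases phosphorylates the initiation factor eIF2, which slows general protein synthesis while the mRNA of ATF4 is translated more. ATF4 then works with partner factors on genes for amino acid synthesis and transport, for redox balance and, through DDIT3, for cell death. In liver and other tissues, damaged mitochondria are a known trigger of this response, and GDF15 is one of the secreted proteins that report it.

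Depth set the precision of every value. Counts on genes totalled 240683 and 60854 in control libraries, 43556 and 29350 with 10 µM, and 2141282 and 1338397 with 100 µM. Because genes of mitochondrial DNA took a different share at each dose, levels are given relative to the counts on nuclear genes. These were 230210 and 54502 in control libraries, 24505 and 11406 with 10 µM, and 2064527 and 1293961 with 100 µM. The unit is CPM with nuclear-gene counts alone as the total, called nuclear CPM below. A gene with 0 counts may still have reached the level of 3 counts, which was 13.0 and 55.0 nuclear CPM in control libraries, 122 and 263 with 10 µM, and 1.45 and 2.32 with 100 µM. Such limits, and the intervals given with shares and ratios, cover counting error only.

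Together the 10 genes took a share of nuclear-gene counts that differed between doses. It was about the same in both controls and in both 100 µM libraries, while counts at 10 µM were too few to tell. Control library 1 held 545 counts on them, or 0.237% (95% exact binomial interval 0.217 to 0.257), and control library 2 held 131, or 0.240% (0.201 to 0.285). At 10 µM library 1 held 3 counts, or 0.0122% (0.00252 to 0.0358), and library 2 held 0, or 0% (0 to 0.0323). At 100 µM the counts were 20525 and 12786, or 0.994% (0.981 to 1.01) and 0.988% (0.971 to 1.01). Mean shares were 0.239% ± 0.00256 in control libraries, 0.00612% ± 0.00866 with 10 µM and 0.991% ± 0.00427 with 100 µM (SD, n = 2 each). The groups did not overlap in this summed share. The pooled share at 100 µM was 4.18 times that of the controls (95% counting interval 3.87 to 4.51), or 4.19 times that of control library 1 and 4.13 times that of control library 2. At the pooled control share, the 10 µM libraries would have held 85.3 counts on these genes, where 3 were counted.

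**Figure D1:**
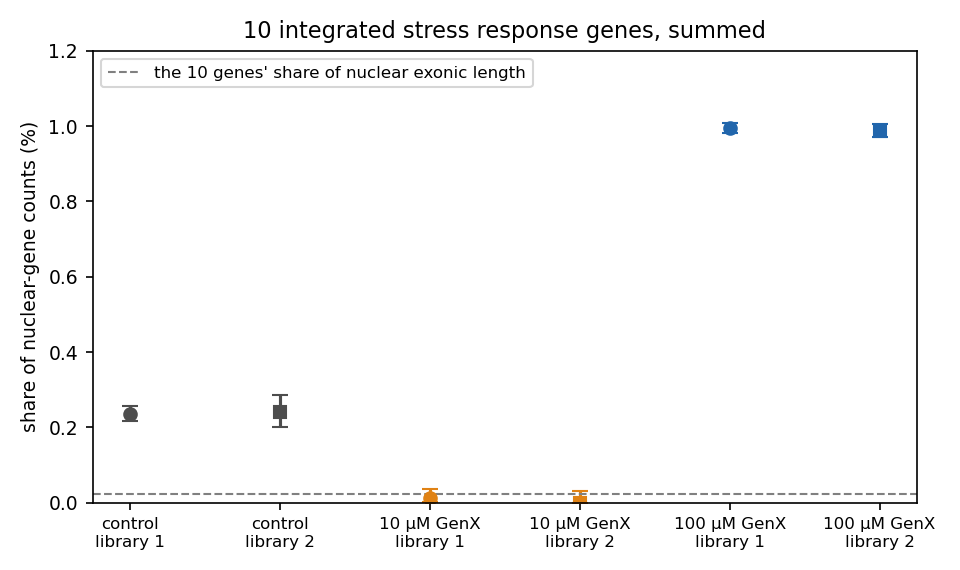
Share of nuclear-gene counts on the 10 genes (%) in each library, in order of dose, with exact 95% binomial intervals as bars. The dashed line marks the 0.0233% of annotated exonic length of nuclear genes that belongs to the 10 genes, and the 10 µM libraries lie at 0.0122% and 0%, the controls near 0.24% and the 100 µM libraries near 0.99%.

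The 10 genes make up 0.0233% of the annotated exonic length of nuclear genes. Counts spread evenly over that length would have put 5.71 and 2.66 counts on them at 10 µM, where 3 and 0 were seen. Their counts were 42.6 and 42.4 times the even level at 100 µM, against 10.2 and 10.3 times in the controls. RNAs kept in the nucleus also differed between doses, in another order. MALAT1 and NEAT1, both counted in every library, together took 14.5% and 6.08% of nuclear-gene counts in control libraries, 0.0857% and 0.140% with 10 µM, and 3.47% and 3.18% with 100 µM. In edgeR both fell at 10 µM against control (adjusted p = 0.00130 and 0.0153) and rose at 100 µM against 10 µM (adjusted p = 0.00246 and 0.00860). The part of nuclear and cytosolic RNA carried into the mitochondrial preparations in these results was not tested. As in any bulk sample, fewer cells with an RNA and less of it per cell cannot be told apart.

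ATF4, the activator at the centre of the response (ENSG00000128272, chromosome 22, GRCh38 39519695 to 39522685), held 14 and 36 counts in control libraries, 1 and 0 with 10 µM, and 2522 and 2011 with 100 µM. In nuclear CPM this was 60.8 and 661 in control libraries, 40.8 and 0 with 10 µM, and 1222 and 1554 with 100 µM. Both 100 µM libraries lay above both controls, and the controls differed 10.9-fold from each other. ATF4 is controlled largely by translation, which these counts do not measure. Each of its 4 processed pseudogenes in the tables held at most 2 counts in any library.

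The other stress-induced transcription factors among the 10 had 5 counts or fewer in each library outside 100 µM. DDIT3, which encodes CHOP, a factor that promotes cell death (ENSG00000175197, chromosome 12, 57516588 to 57520517), held 5 and 0 counts in control libraries, 0 and 0 with 10 µM, and 937 and 311 with 100 µM. Those 100 µM counts were 454 and 240.3 nuclear CPM, against 21.7 nuclear CPM in control library 1. DDIT3 shares 355 exonic bases with MARS1 on the opposite strand, and since the strand setting was not given, reads there cannot be assigned for certain. MARS1 had 4 and 0 counts in control libraries, 1 and 2 with 10 µM, and 383 and 108 with 100 µM. ATF3, a stress-induced repressor and activator of transcription (ENSG00000162772, chromosome 1, 212565334 to 212620777), held 1 and 0 counts in control libraries, 0 and 0 with 10 µM, and 1580 and 1097 with 100 µM, the last 2 being 765 and 848 nuclear CPM. Among the 10 genes ATF3 had the highest pooled ratio of 100 µM to control, a value that rests on 1 control count.

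At 100 µM the genes of secreted proteins held most of the counts. STC2, stanniocalcin 2, a secreted glycoprotein (ENSG00000113739, chromosome 5, 173314713 to 173329503), had 141 and 4 counts in control libraries, 1 and 0 with 10 µM, and 7397 and 3981 with 100 µM. In nuclear CPM these were 612 and 73.4 in control libraries, 40.8 and 0 with 10 µM, and 3583 and 3077 with 100 µM. By count STC2 ranked 15th and 16th of all nuclear genes in the 100 µM libraries. GDF15, a stress cytokine of the TGF-beta family (ENSG00000130513, chromosome 19, 18374731 to 18389176), had 257 and 53 counts in control libraries, 0 and 0 with 10 µM, and 4407 and 3280 with 100 µM. Its nuclear CPM were 2135 and 2535 at 100 µM, against 1116 and 972 in the controls. Of the 5 genes counted in both controls GDF15 differed least between them, 1.15-fold, while STC2 differed 8.35-fold.

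The regulators that restrain growth or the response itself did not share 1 pattern. TRIB3, a pseudokinase that holds back ATF4 and DDIT3 (ENSG00000101255, chromosome 20, 362835 to 397559), had 86 and 7 counts in control libraries, 0 and 0 with 10 µM, and 827 and 865 with 100 µM. In nuclear CPM TRIB3 had 401 and 668 at 100 µM, against 374 and 128 in the controls. DDIT4, also called REDD1, an inhibitor of the growth kinase complex mTORC1 (ENSG00000168209, chromosome 10, 72273920 to 72276036), had 14 and 31 counts in control libraries, 1 and 0 with 10 µM, and 1107 and 515 with 100 µM. In nuclear CPM DDIT4 had 536 and 398 at 100 µM, against 60.8 and 569 in the controls, so that control library 2 lay above both 100 µM libraries. An antisense gene, DDIT4-AS1, shares 847 exonic bases with DDIT4 and had 0 counts in all 6 libraries. SESN2, a sestrin that senses leucine and also inhibits mTORC1 (ENSG00000130766, chromosome 1, 28259527 to 28282491), had 5 and 0 counts in control libraries, 0 and 0 with 10 µM, and 890 and 400 with 100 µM, the last 2 being 431 and 309 nuclear CPM.

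Of the enzymes, ASNS, which makes asparagine (ENSG00000070669, chromosome 7, 97852118 to 97872542), had 22 and 0 counts in control libraries, 0 and 0 with 10 µM, and 853 and 326 with 100 µM. These were 413 and 252 nuclear CPM at 100 µM, against 95.6 in control library 1. CHAC1, which breaks down glutathione (ENSG00000128965, chromosome 15, 40952962 to 40956519), had 5 counts in 100 µM library 1 and 0 in the other 5 libraries. Its level at 100 µM was thus 2.42 nuclear CPM in library 1 and at most 2.32 in library 2. CHAC1 stood apart from the other 9 genes, each of which had at least 311 counts in both 100 µM libraries.

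**Figure D2:**
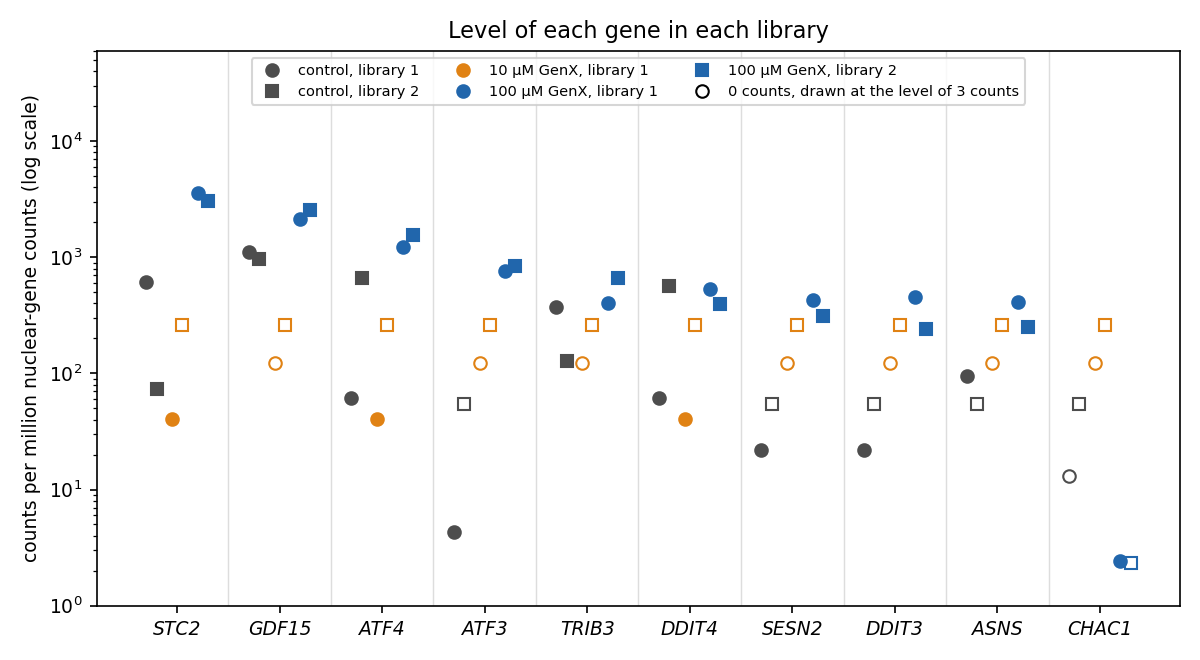
Nuclear CPM of each of the 10 genes in each library on a log axis, with open symbols for 0 counts drawn at the level of 3 counts of that library. Most 10 µM symbols are open at 122 and 263 nuclear CPM, DDIT4 has a control above its 100 µM libraries, and CHAC1 lies below 3 nuclear CPM at 100 µM.

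ATF4 binds, with C/EBP partners, a composite element in the promoters of its targets, written here as the letters TGATGNAA on either strand. RefSeq promoter windows (build GRCh38.p14, 250 bases before to 50 after a start) were found for all 10 genes. The element was present in windows of 3 of them, ASNS, CHAC1 and ATF3, beside 4.46% of the 27305 genes with such windows. The palindrome TGACGTCA, the cyclic AMP response element that other ATF factors bind, was in 0 of the 10 and in 2.25% of all genes. These are matches of letters in a short window, and a window without them says nothing of the factor. The matches are printed to compare their 30-base surroundings, read along the gene's strand with the matching letters in capitals. They start 68 bases before the start that RefSeq gives in ASNS (chr7:97872458-97872487, minus strand), 209 before in CHAC1 (chr15:40953251-40953280, plus strand, match on the opposite strand) and 191 before in ATF3 (chr1:212565205-212565234, plus strand).
ASNS: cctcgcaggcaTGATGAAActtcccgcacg
CHAC1: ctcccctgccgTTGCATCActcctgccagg
ATF3: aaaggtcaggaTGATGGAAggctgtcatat
The genes with the element were not alike in level: at 100 µM ATF3 had 765 and 848 nuclear CPM, ASNS 413 and 252, and CHAC1 2.42 and 0. STC2 and GDF15, which held the most counts, had no match in their windows.

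Which genes made up the counts differed more between the 2 controls than between the 2 libraries at 100 µM. With 100 µM STC2 took 36.0% and 31.1% of the counts on the 10 genes, GDF15 21.5% and 25.7%, ATF4 12.3% and 15.7%, and ATF3 7.70% and 8.58%. In control library 1 GDF15 took 47.2%, STC2 25.9% and TRIB3 15.8%. In control library 2 GDF15 took 40.5%, ATF4 27.5%, DDIT4 23.7% and STC2 3.05%. The like summed share of the 2 controls, 0.237% and 0.240%, was thus made of the genes in different proportions. Without STC2 and GDF15 the other 8 genes took 0.0639% and 0.136% in control libraries, 0.00816% and 0% with 10 µM, and 0.422% and 0.427% with 100 µM.

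**Figure D3:**
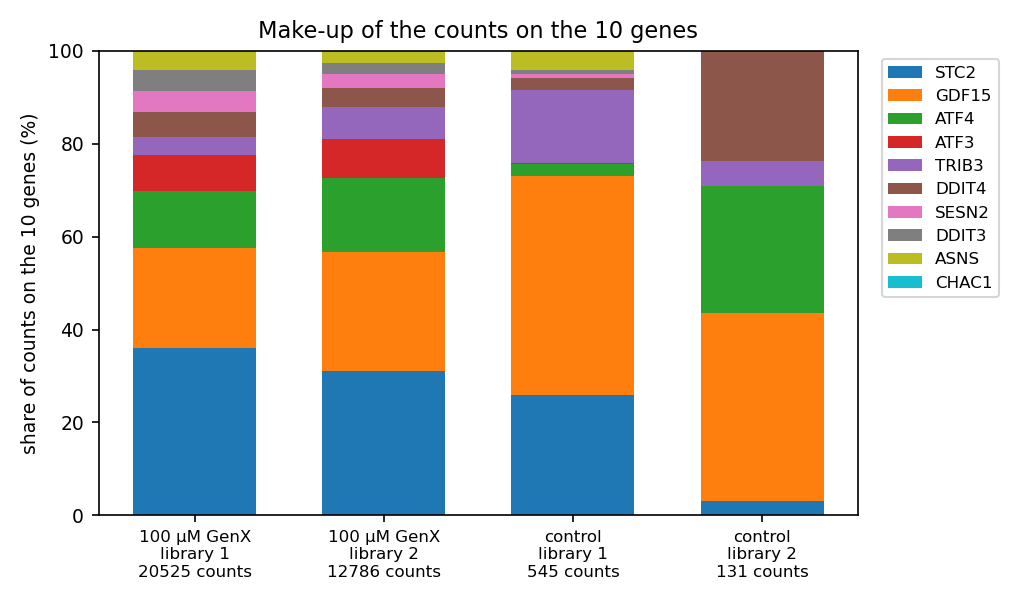
Stacked bars of the share of each gene (%) in the counts on the 10 genes, for the 100 µM libraries and the controls, with the number of counts under each bar. The 100 µM bars are alike, while STC2 takes 25.9% in control library 1 and 3.05% in control library 2.

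For an order of levels between genes, counts were divided by gene length and put on the TPM scale over nuclear genes (nuclear TPM). At 100 µM GDF15 was highest, with 3874 ± 472 nuclear TPM (SD, n = 2), above ATF4 (1912 ± 325) and STC2 (1881 ± 201), whose libraries overlapped. DDIT3 (949 ± 412), DDIT4 (786 ± 164), ATF3 (691 ± 50.4), TRIB3 (539 ± 191), SESN2 (371 ± 86.3) and ASNS (258 ± 88.5) followed, and each neighbour in that order overlapped with the next. CHAC1 was last, with 4.07 and 0. In the controls GDF15 was also highest (1937 ± 556), and below it DDIT4 (522 ± 557), ATF4 (488 ± 541), TRIB3 (299 ± 247) and STC2 (238 ± 280) overlapped with one another.

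Compared with control, 100 µM GenX went with 8 of the 10 genes having both 100 µM libraries above both controls in CPM: ATF3, SESN2, DDIT3, ATF4, STC2, ASNS, GDF15 and TRIB3. The same held for 48.5% of the 3180 genes that passed a filter on low counts. The pooled nuclear share of STC2 at 100 µM was 6.65 times that of the controls (95% counting interval 5.65 to 7.89), that of ATF4 7.69 times (5.82 to 10.4) and that of GDF15 2.10 times (1.88 to 2.36). ATF3 had a ratio of 227 (40.7 to 8967), with an interval that overlapped those of SESN2 and DDIT3. SESN2 and DDIT3 had ratios of 21.9 (9.35 to 67.5) and 21.2 (9.04 to 65.3), each resting on 5 counts in control library 1. ASNS had 4.54 (2.99 to 7.28), DDIT4 3.06 (2.27 to 4.21) and TRIB3 1.54 (1.25 to 1.92). Pooling weights each library by its depth, so control library 1 counts most.

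None of these differences passed the test across all genes. In edgeR's quasi-likelihood test 0 of the 10 genes were called, beside 0% of the 3180 tested, and 1 of the 10 (ATF3) had an unadjusted p under 0.05, beside 573 genes in all. DESeq2's Wald test also called 0 of the 10, beside 0.0153% of 19632 genes, with 1 at an unadjusted p under 0.05, beside 582 genes. ATF3 had a log2 fold change of 7.21 ± 2.06 (SE, n = 2 per group) with an adjusted p of 0.204, SESN2 3.99 ± 1.81 (adjusted p = 0.281), DDIT3 3.89 ± 1.79 (0.287) and STC2 2.47 ± 1.31 (0.340). ASNS had 1.86 ± 1.78 (0.593), ATF4 1.68 ± 1.38 (0.527), GDF15 0.57 ± 1.03 (0.798), TRIB3 0.37 ± 1.45 (0.910) and DDIT4 0.29 ± 1.49 (0.934). The values for TRIB3 and DDIT4 lay below 0 under other settings, -0.08 and -0.19 with DESeq2 size factors, and TRIB3 -0.09 without control library 2. The median over the 9 genes that passed the filter was 1.86, beside 0.35 over all genes tested. CHAC1 did not pass, and the filter could be passed through the 100 µM libraries alone.

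Each control alone gave a different set of gaps for the same 100 µM libraries. Against control library 1 the pooled 100 µM ratio was 22.2 for ATF4 (13.2 to 40.6) and 7.94 for DDIT4 (4.72 to 14.6), and against control library 2 it was 2.04 (1.47 to 2.92) and 0.849 (0.596 to 1.25). STC2 turned the other way, with 5.53 (4.68 to 6.58) against control library 1 and 46.2 (18.0 to 169) against control library 2. TRIB3 had 1.35 (1.09 to 1.70) and 3.92 (1.90 to 9.77). GDF15 was about equal, with 2.05 (1.81 to 2.33) and 2.35 (1.80 to 3.15). Control library 2 had 0 counts of ATF3, SESN2, DDIT3 and ASNS. At 100 µM they were 14.5-fold, 6.98-fold, 6.75-fold and 6.38-fold higher than the level of 3 counts in that library. The exact intervals of their ratios started at 11.8, 5.67, 5.48 and 5.18. Without control library 1 edgeR called STC2 (log2 fold change 5.86, adjusted p = 0.0133) and ATF3 (adjusted p = 0.0443), and without control library 2 ATF4 (3.90, adjusted p = 0.0469) and ATF3 (6.89, adjusted p = 0.0172). In those fits 3.57% of 2888 genes and 2.97% of 6870 genes were called, and the remaining control was taken to vary like the other groups.

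**Figure D4:**
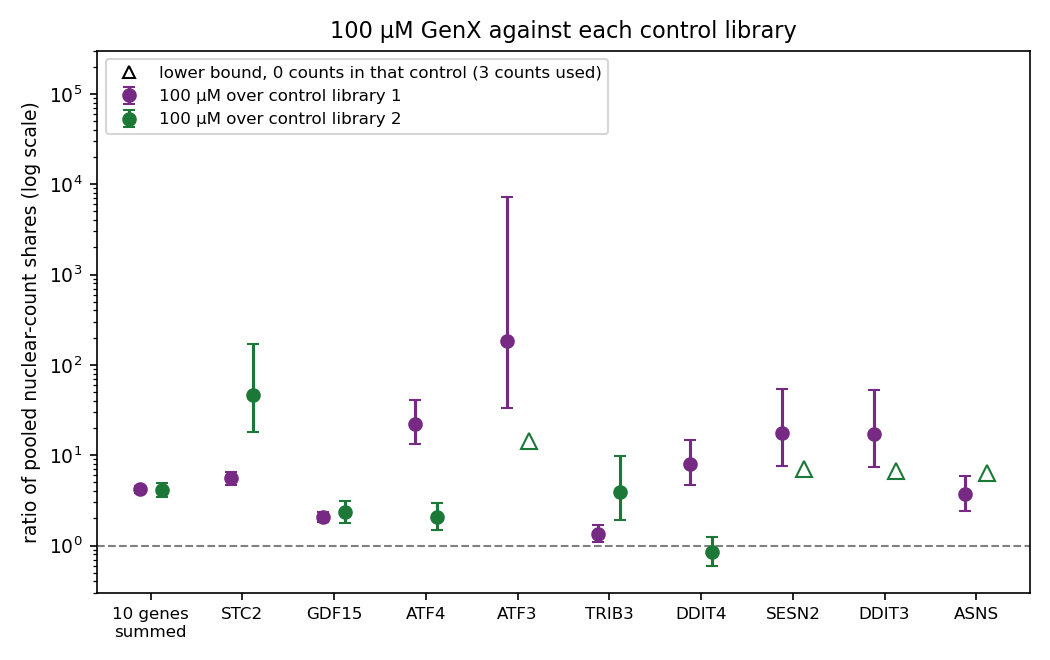
Ratio of the pooled nuclear share at 100 µM to that of each control library alone, on a log axis, with 95% counting intervals and open triangles for lower bounds where a control had 0 counts. The 10 genes summed lie at 4.19 and 4.13, ATF4 and DDIT4 are higher against control library 1, and STC2 and TRIB3 against control library 2.

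At 10 µM against control, 5 of the 10 genes had both 10 µM libraries below both controls in CPM: GDF15, STC2, ATF4, TRIB3 and DDIT4. This held for 35.8% of the 3180 genes tested. GDF15 had 0 counts at 10 µM, against 310 in the pooled controls, and 39.1 would have been counted at the control share. It was at least 13.0-fold lower at 10 µM on the level of 3 counts over both libraries, and the exact interval of the ratio started at 10.5. TRIB3 had 0 counts at 10 µM, against 93 in the controls, with 11.7 expected at the control share. Its bound on the level of 3 counts was 3.91-fold lower than the pooled controls, and the exact interval of the ratio started at 3.12. Against control library 2 alone, with 7 counts, the bound was 1.54-fold and the interval of the ratio started below 1. The control to 10 µM ratios were 18.3 for STC2 (95% counting interval 3.23 to 727), 6.31 for ATF4 (1.08 to 254) and 5.68 for DDIT4 (0.968 to 229), each on 1 count at 10 µM. Against the control that was lower the counts resolved less: the interval of the ratio reached below 1 for STC2 with control library 2 (0.261 to 129.8) and for ATF4 and DDIT4 with control library 1 (0.332 to 92.3 for both). For DDIT3, SESN2 and ATF3 the pooled control share would have given 0.631, 0.631 and 0.126 counts at 10 µM, so a difference was not detectable at this depth. ASNS, at 0 counts in control library 2, would have had 2.77 counts at the pooled share and 3.43 at the share of control library 1. Against control library 1 the bound on the level of 3 counts was 1.14-fold, but the interval of the ratio started at 0.855, below 1. CHAC1 had 0 counts in both groups.

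In edgeR 0 of the 10 genes were called at 10 µM against control, beside 0.597% of all genes tested. An unadjusted p under 0.05 was held by 4 of the 10, beside 895 of the 3180 genes tested. DESeq2's Wald test called 0 of the 10, beside 0.0815% of 19632 genes, with 2 at an unadjusted p under 0.05, beside 667 genes. The smallest adjusted p was 0.0669 for GDF15, followed by 0.146 for STC2 (log2 fold change -5.06 ± 1.74) and TRIB3, and 0.159 for ATF4 (-4.59 ± 1.84). Without control library 1 GDF15 (adjusted p = 0.00748), ATF4 (-5.53, adjusted p = 0.0132) and DDIT4 (-5.33, adjusted p = 0.0298) were called, beside 12.5% of the 2888 genes tested in that fit. Without control library 2 the calls were GDF15 (5.75e-06), STC2 (-6.49, 4.72e-05), TRIB3 (0.00150) and ASNS (0.0479), again beside 12.5%, here of 6870 genes. GDF15 was thus called with either control left out, but not with either 10 µM library left out (log2 fold change -12.8 in both fits). Each of these fits left 1 library in a group, which was taken to vary like the other groups.

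At 100 µM against 10 µM GDF15 rose, and it was the 1 gene of the 10 that passed, beside 0.755% of all genes called higher in this comparison. Its 7687 counts at 100 µM, against 0 at 10 µM, put it at least 27.4-fold higher on the level of 3 counts (edgeR, adjusted p = 0.0304). The exact interval of its ratio started at 22.3. The adjusted p was 0.0532 with nuclear genes only, 0.0735 with no filter on low counts, 0.0568 in DESeq2's Wald test, 0.0596 without 10 µM library 1, and 0.0921 and 0.141 without 100 µM library 1 or 2, with a range of 9.78e-07 to 0.141 over all settings. In CPM 9 of the 10 genes, all but CHAC1, had both 100 µM libraries above both 10 µM libraries, as did 70.8% of all genes tested. The filter could be passed through the 100 µM libraries alone, so for genes that passed that way the order was largely fixed beforehand. The 100 µM to 10 µM ratio was 122 for STC2 (21.8 to 4806, adjusted p = 0.0550), 48.5 for ATF4 (8.69 to 1915, adjusted p = 0.106) and 17.3 for DDIT4 (3.11 to 685, adjusted p = 0.131). ATF3, TRIB3, SESN2, DDIT3 and ASNS, at 0 counts at 10 µM, were at least 9.54-fold, 6.03-fold, 4.60-fold, 4.45-fold and 4.20-fold higher at 100 µM on the level of 3 counts. The exact intervals of their ratios started lower, at 7.75, 4.90, 3.73, 3.61 and 3.41. This comparison shares its 100 µM libraries with the one against control.

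The response was also followed through 80 other genes in 6 lists by role, of which 38 passed the filter. Of the 38, 0 were called at 100 µM against control (edgeR), and 25 were fitted above 0, beside 55.0% of all genes tested. The median log2 fold change of the 38 was 1.19, beside 0.35 for all genes. Here too the filter could be passed through the 100 µM libraries alone. At 10 µM 1 was called, NDRG1, which was lower, and at 100 µM against 10 µM the same gene was called higher. The whole set of 80 genes took 2.57% and 2.38% of nuclear-gene counts in control libraries, 0.396% and 0.456% with 10 µM, and 2.56% and 2.94% with 100 µM. Of the 80 genes 16 had 0 counts in both control libraries, 45 in both with 10 µM and 7 in both with 100 µM. NDRG1 and ERO1A held 3804 of the 5915 counts of the set in control library 1 and 925 of 1296 in control library 2. Without them, a choice made after their counts were seen, the other 78 genes took 1.49% and 1.37% at 100 µM, against 0.917% and 0.681% in the controls.

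Among the genes that control eIF2, EIF2S2, a subunit of eIF2 itself, had 46 and 47 counts in control libraries, 3 and 1 with 10 µM, and 1973 and 951 with 100 µM. In nuclear CPM EIF2S2 had 200 and 862 in control libraries, against 956 and 735 with 100 µM. Its log2 fold change at 100 µM against control was 0.32 ± 1.25 (edgeR, adjusted p = 0.910). EIF2S3, another subunit, had 331 and 2 counts in control libraries, 1 and 1 with 10 µM, and 180 and 39 with 100 µM. In nuclear CPM EIF2S3 had 1438 and 36.7 in control libraries, against 87.2 and 30.1 with 100 µM. PPP1R15A, also called GADD34, which helps to reverse eIF2 phosphorylation, had 9 and 5 counts in control libraries, 1 and 0 with 10 µM, and 740 and 544 with 100 µM. This was 358 and 420.4 nuclear CPM at 100 µM, against 39.1 and 91.7 in the controls. Of the 19 genes of this list 8 were tested and 0 called in any comparison. Their summed share was 0.230% and 0.169% in control libraries, 0.0245% and 0.0526% with 10 µM, and 0.221% and 0.197% with 100 µM.

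ATF4's partners and other stress factors had at most 27 counts in a control library. CEBPG, which pairs with ATF4, had 1 and 1 counts in control libraries, 5 and 0 with 10 µM, and 602 and 469 with 100 µM. CEBPB, a liver C/EBP factor, had 27 and 0, then 0 and 1, then 725 and 368. NFE2L2, or NRF2, the antioxidant factor, had 8 and 3, then 0 and 0, then 245 and 137. In nuclear CPM CEBPG had 4.34 and 18.3 in control libraries, against 292 and 362 with 100 µM. CEBPB had 117 and 0 against 351 and 284, and NFE2L2 34.8 and 55.0 against 119 and 106. Their log2 fold changes at 100 µM against control were 4.64 ± 1.98, 1.51 ± 1.78 and 0.83 ± 1.25 (edgeR, adjusted p = 0.257, 0.670 and 0.746). The 9 genes of this list together took 0.0191% and 0.0257% in control libraries, 0.0204% and 0.0175% with 10 µM, and 0.0996% and 0.0944% with 100 µM. Of these 4 were tested and 0 called.

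Enzymes of serine and one-carbon metabolism had few counts outside 100 µM, in libraries that were also less deep. MTHFD2, the mitochondrial folate enzyme that ATF4 is known to raise, had 3 and 0 counts in control libraries, 0 and 0 with 10 µM, and 792 and 205 with 100 µM. PHGDH, the first enzyme of serine synthesis, had 14 and 5, then 0 and 0, then 391 and 231. SHMT2, the mitochondrial serine hydroxymethyltransferase, had 1 and 0, then 20 and 0, then 339 and 102. The 20 counts were 816 nuclear CPM in 10 µM library 1, above the 164 and 78.8 of the 100 µM libraries. MTHFD2 had 13.0 and 0 nuclear CPM in control libraries, against 384 and 158 with 100 µM. PHGDH had 60.8 and 91.7 against 189 and 179. The log2 fold changes of MTHFD2 and PHGDH at 100 µM against control were 4.18 ± 1.71 and 0.76 ± 1.31 (edgeR, adjusted p = 0.249 and 0.783). Of 13 such genes 3 were tested and 0 called, and their summed share was 0.0430% and 0.0220% in control libraries, 0.180% and 0% with 10 µM, and 0.125% and 0.0769% with 100 µM.

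Amino acid transporters differed among themselves. SLC3A2, the heavy chain that carries several transporters, had 113 and 128 nuclear CPM in control libraries, 40.8 and 0 with 10 µM, and 1276 and 1671 with 100 µM (log2 fold change of 3.05 ± 1.36 at 100 µM against control, adjusted p = 0.271). SLC7A5, its leucine-transporting partner, had 86.9 and 55.0, then 204 and 351, then 827 and 697. SLC38A2, a carrier of neutral amino acids, had 2541 and 881, then 81.6 and 0, then 963 and 959, so that control library 1 lay above both 100 µM libraries. Of 10 such genes 5 were tested and 0 called, and their summed share was 0.281% and 0.176% in control libraries, 0.0367% and 0.0351% with 10 µM, and 0.403% and 0.388% with 100 µM.

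Cytosolic aminoacyl-tRNA synthetases, which load amino acids onto transfer RNA, took 0.132% and 0.0789% in control libraries, 0.0979% and 0.114% with 10 µM, and 0.292% and 0.271% with 100 µM, with 11 of 14 genes tested and 0 called. The 10 µM shares were 24 and 13 counts, and VARS1 alone held 19 of the 24. TARS1 had 52.1 and 404 nuclear CPM in control libraries, 0 and 0 with 10 µM, and 488 and 669 with 100 µM. CARS1 had 152 and 128, then 40.8 and 87.7, then 390.4 and 495. GARS1 had 182 and 0, then 0 and 175, then 496 and 348. At 10 µM CARS1 had 1 and 1 counts and GARS1 0 and 2, all below the level of 3 counts.

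Other genes tied to the pathway took the largest share of the 6 lists in each control and 100 µM library, and did not differ in 1 direction. NDRG1, which also responds to hypoxia, had 6816 and 16898 nuclear CPM in control libraries, 163 and 526 with 10 µM, and 9532 and 14585 with 100 µM. It fell at 10 µM against control (log2 fold change -6.39 ± 0.77, adjusted p = 0.00959) and had -0.40 ± 0.60 at 100 µM against control (adjusted p = 0.742). ERO1A, an oxidase of the endoplasmic reticulum, had 9709 and 73.4, then 40.8 and 0, then 1180 and 1078. VEGFA, an angiogenic growth factor, had 665 and 1816, then 40.8 and 0, then 934 and 633. FGF21, a liver hormone that ATF4 is known to raise, had 0 counts in all 6 libraries. It is named after its counts were seen.

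**Figure D5:**
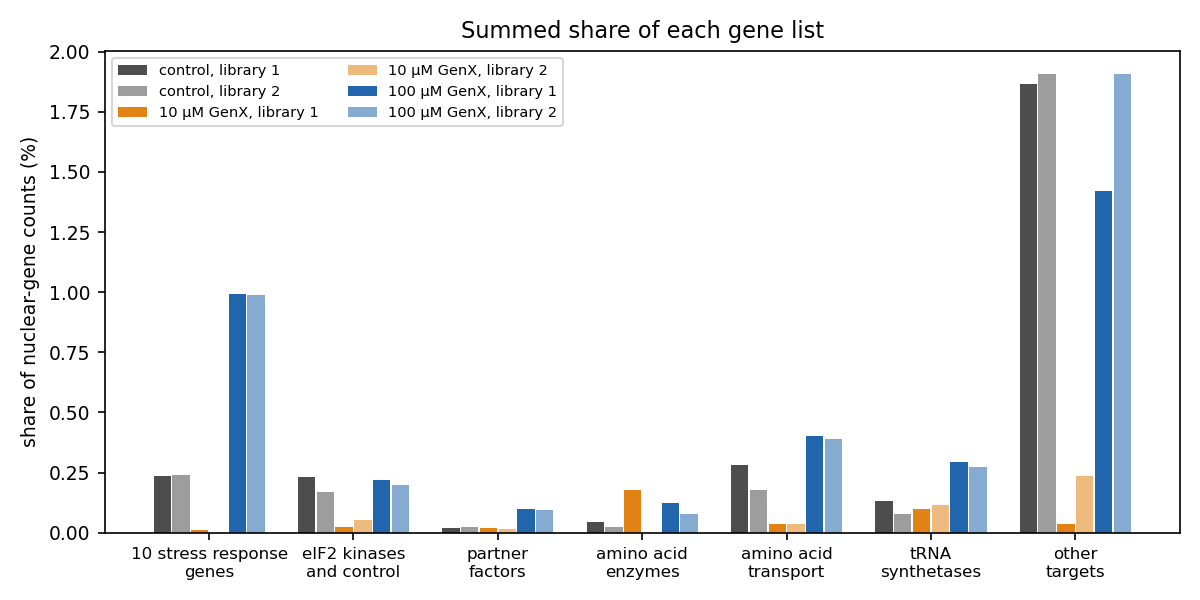
Share of nuclear-gene counts (%) taken by the 10 genes and by 6 further lists of pathway genes in each library, with the 2 libraries of a dose side by side. The 10 genes stand at 0.99% at 100 µM and 0.24% in the controls, while the eIF2 list has 0.221% and 0.197% at 100 µM and 0.230% and 0.169% in the controls.

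The labelled cell line was checked on 13 genes of hepatocyte-like HepG2 cells, which took 0.875% and 2.01% of nuclear-gene counts in control libraries, 0.0857% and 0.0614% with 10 µM, and 1.33% and 1.26% with 100 µM. APOA2 led them, with 954 and 454 counts in control libraries, 4 and 2 with 10 µM, and 18293 and 11076 with 100 µM. Of the 8 tested in edgeR, APOA2 and the keratin KRT18 fell at 10 µM against control (adjusted p = 0.0111 and 0.0410), and APOA2 rose at 100 µM against 10 µM (adjusted p = 0.00323). KRT18 had 459 and 314 counts in control libraries, 1 and 1 with 10 µM, and 2386 and 1086 with 100 µM. These counts are not scaled for depth. At 100 µM against control edgeR gave log2 fold changes of 0.02 ± 0.63 for APOA2 (adjusted p = 0.990) and -2.37 ± 0.93 for KRT18 (adjusted p = 0.232). Of the 8 tested, 2 were fitted above 0 in that comparison. FGA had 0 counts throughout, and AFP and TTR, both usual in this line, had 0 in the controls. Of the markers of other cell types PTPRC, CD3E, CD68, TYROBP, KDR, CDH5 and LUM had 0 counts in all libraries, and COL1A1 (50 and 6, then 6 and 6, then 67 and 42) and LYZ (74 and 8, then 2 and 4, then 52 and 60) held most of the rest. The 6 fibroblast genes together took 0.0226% and 0.0147% in control libraries, 0.0408% and 0.0789% with 10 µM, and 0.00349% and 0.00340% with 100 µM. The 6 leukocyte genes took 0.0321% and 0.0239%, then 0.00816% and 0.0351%, then 0.00252% and 0.00464%, and the 4 endothelial genes had at most 4 counts in a library. The part of these RNAs in the results was not tested.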

How the data were processed

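The authors deposited 1 table of unnormalized counts for each library, with whole numbers for every gene, in the layout of featureCounts. Per the submitters' processing notes the tools were FastQC, STAR, featureCounts and DESeq2 with build GRCh38. Neither versions nor annotation release, strand setting or treatment of shared reads are stated (not given in the sources used here). Libraries, per the labels' protocols, were stranded, from total RNA depleted of ribosomal RNA. Reads on shared exons or pseudogenes can therefore be missing or split.

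Symbols came from a table of gene identifiers, which named 56410 of the 57500, and gene types from GENCODE v29. The 10 genes, the lists of related genes and the tests were chosen with earlier results of these data known. Totals ran from 29350 to 2141282 counts. The libraries of each dose differed by more than sampling noise (chi-square per degree of freedom 39.4, 12.9 and 35.2 from 0 to 100 µM) and were kept as 2.

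edgeR 4.0.16 (R 4.3.3) fitted all 6 libraries in 1 model of group means, with filterByExpr (3180 genes), TMM scaling and robust quasi-likelihood tests, two-sided, Benjamini-Hochberg over all genes tested, threshold 0.05. SEs are the log2 fold change over the square root of the F statistic. No exact permutation test of 2 against 2 libraries can give a p below 0.333, so none is reported. Pooled ratios carry exact 95% counting intervals, and a group at 0 was set to 3 counts over its pooled libraries. Bounds made that way leave out the counting error of the other group. The fit was tested on simulated data with known changes. Every simulated library had the same pooled gene profile at its own depth, with a shared spread. The real differences in make-up between doses were thus left out, and recovery in these data may differ. Changed genes that failed the filter counted as not recovered. Of genes given a 16-fold change the fit recovered 0% at 10 µM against control, 2.99% at 100 µM against control and 2.99% at 100 µM against 10 µM. Of genes given a 64-fold change it recovered 1.52%, 43.9% and 15.2%, in that order. A gene that was not called may therefore still differ widely. Named were all 10 genes and, in each further list, genes that passed and the 3 with the highest mean CPM. The planned search for genes most like the 10 was not done, since they had 0 counts in 1 library and the libraries fall into separate groups by dose. DESeq2 1.42.0 was an alternative. Python 3.11.15, pandas 2.3.3, numpy 2.4.6, scipy 1.17.1 and matplotlib 3.10.9 were used.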

Additional observations from a re-analysis of the deposited data

How the results depend on the processing

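The 9 genes tested had 366 other fits over the 3 comparisons, of which 5 had the other sign: at 100 µM against control TRIB3 (-0.076 with DESeq2 size factors, and -0.090 to 2.40 without a library, lowest without control library 2) and DDIT4 (-0.19 with DESeq2 size factors, -0.019 in DESeq2), and at 10 µM ATF3 (0.48 in DESeq2). At 10 µM against control 0 of the 10 genes were called, beside 0.597% of all genes tested. GDF15 alone was called with a mean of at least 5 CPM (beside 0.795% of all genes) or with the replicate block (beside 2.36%). With only the 4 libraries compared GDF15 was the 1 of the 10 tested and was called, beside 45.0% of 458 genes. At 100 µM against control 0 were called under every setting that kept both libraries of each dose. At 100 µM against 10 µM 1 was called, beside 2.86% of all genes called in either direction. With library sizes alone or the replicate block 2 were called, beside 5.0% and 4.28%. With the mean of 5 CPM 5 were called, beside 2.43%, and with the 4 libraries 4, beside 4.44%. With nuclear genes only, without a filter or in DESeq2 0 were called, beside 0%, 0.0153% and 2.56%.

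Over all genes the calls at 10 µM were 19, then 7 with library sizes alone, 1 with nuclear genes only, 7 without a filter, 95 with 5 CPM, 206 with 4 libraries, 75 with the replicate block, and 4 to 861 without a library. At 100 µM against control they were 0, then 4 with DESeq2 size factors (all lower), 22 with the replicate block, 3 in DESeq2, and 0 to 204 without a library. At 100 µM against 10 µM they were 91, then 159, 0, 3, 291 and 258 under the first 5 of those settings, 136 with the replicate block, 503 in DESeq2, and 16 to 1272 without a library. The highest of each range came without control library 2. The 91 were 24 higher and 67 lower, the 159 were 68 and 91, and with DESeq2 size factors 6 were higher and 73 lower. Higher calls outnumbered lower ones with 5 CPM (201 and 90), with 4 libraries (158 and 100) and without control library 1 (822 and 219) or 2 (927 and 345). The 19 were 7 higher and 12 lower, against 8 and 7 for DESeq2 size factors, 0 and 7 for library sizes. Over all genes the median at 100 µM against control was 0.35 (log2), -0.05 for DESeq2 size factors and 1.01 for library sizes. Replicate numbers did not pair the libraries (correlations of deviations between -0.02 and 0.00315), and the block also moved fitted values, that of STC2 at 100 µM against control to 3.45 and the median of all genes to 0.78. Fits without a library also test other numbers of genes, and the cause of these moves was not tested.

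The summed share was 0.991% at 100 µM and 0.239% in the controls. It was 0.957% and 0.221% of all counts, 1.08% and 0.294% without the 10 highest nuclear genes, 1.06% and 0.277% of protein-coding counts, and 0.425% and 0.0998% without GDF15 and STC2. Single libraries gave 0.237% to 0.240% in the controls, 0% to 0.0122% at 10 µM, and 0.988% to 0.994% at 100 µM. Depth limits DDIT3, SESN2, ATF3 and CHAC1 at 10 µM, where the share of either control predicts under 3 counts, and ASNS at the pooled share.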

Other observations

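Some pathway genes had counts in a single 10 µM library. SHMT2 had 20 counts in library 1 and 0 in library 2, PYCR1 19 and 0, VARS1 19 and 0, and ADM2 0 and 15. INHBE, a secreted protein of the TGF-beta family made in liver, held 14 and 56 counts with 100 µM GenX and 145 and 0 in control libraries. These genes, SHMT2 apart, were named after their values were seen.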
